A study of Drosophila melanogaster with 2 samples.

Results

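The subject is a band of 1481 regions from a map of the chromatin bound by Glass, drawn from the list of peaks that pooled both samples of the study. They were selected on deposited values: their −log10 q value, 4.10, was the maximum in that list, and they were missing from the shorter list, here the optimal list, that passed the authors' threshold on the irreproducible discovery rate (a measure of how well replicate ranks match). The pooled list had 30000 entries, of which 6290 carried that value, and 4809 of these made up the optimal list. The 1481 regions, called the outside peaks, held ranks 4810 to 6290 by signal value. They were therefore the entries directly below the optimal list.

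The study is a ChIP-seq experiment, in which DNA bound by a protein is recovered with an antibody and sequenced. The labels describe whole Drosophila melanogaster pupae, males and females together, aged 24 hour, from a stable transgenic line in which GFP is joined to the C terminus of gl. Both biological replicates belong to this group, both carry the transgene, and there is no other genotype or treatment, so no comparison between conditions was possible. The labels do not give the promoter of the transgene, and whole animals mix all tissues; peak lists hold no expression values by which the tissue could be checked.

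Glass is a zinc finger transcription factor that photoreceptor neurons of the fly eye need in order to mature. It acts after the early retinal genes that give the eye field its identity, among them eyeless, and several genes of phototransduction depend on it. In whole pupae the eye is a small part of the tissue, and the eye and the rest of the body are remodelled under the steroid hormone ecdysone.

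Sequences of a few of these regions, from the plus strand of the RefSeq dm6 assembly, show what lies at their summits. The first set holds peaks at 3 genes of the retinal list that had no optimal peak: lz, a Runx factor of photoreceptor and cone cell fate (chrX:9284195-9284295), ey, the Pax6 factor eyeless (chr4:697632-697688), and tsh, a zinc finger factor that acts with the eye specification genes (chr2L:21828229-21828329). Windows are centred on the summit, and that of ey stops before the transcript starts. Capitals mark the 6-mers that were more frequent at these summits than in their flanks.
lz: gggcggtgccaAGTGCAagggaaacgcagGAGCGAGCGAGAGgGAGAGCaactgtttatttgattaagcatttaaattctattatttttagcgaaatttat
ey: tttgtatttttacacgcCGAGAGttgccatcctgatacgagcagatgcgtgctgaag
tsh: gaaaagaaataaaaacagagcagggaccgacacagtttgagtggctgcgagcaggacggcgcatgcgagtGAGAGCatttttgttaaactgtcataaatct

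The next set shows how the sequence differed with the replicate in which a peak was strong. Hnf4 (chr2L:8691336-8691436), drn (chr3R:9353431-9353531) and CG15258 (chr2L:15385620-15385720) name the nearest transcription start sites (TSSs) of 3 peaks strong in replicate 1 alone. Snoo (chr2L:7973557-7973657), aop (chr2L:2161589-2161689) and Ubr1 (chrX:16967569-16967669) do so for replicate 2. They were the best ranked of their class after peaks within 500 bp of an optimal summit, and those of 1 chromosome arm whose sequence is not shown, were left out. Peaks closer to an optimal summit ranked better: those at CG7694, Ctps and Tlk, strong in replicate 1 alone, held ranks 414, 542 and 554 there with 49.5%, 65.3% and 52.5% G and C bases, and lay 200 to 204 bp from one. Capitals mark the homeodomain motif TAATTA. The windows were also searched for GAGAGA, for CAGCTG and for AGATAA, on either strand, and only that at drn held any of the motifs.
Hnf4: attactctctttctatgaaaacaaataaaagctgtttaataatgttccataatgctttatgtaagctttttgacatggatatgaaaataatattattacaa
drn: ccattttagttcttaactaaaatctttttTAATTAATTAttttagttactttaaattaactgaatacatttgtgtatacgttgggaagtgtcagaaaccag
CG15258: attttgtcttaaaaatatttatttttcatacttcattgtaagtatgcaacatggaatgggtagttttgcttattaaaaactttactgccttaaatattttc
Snoo: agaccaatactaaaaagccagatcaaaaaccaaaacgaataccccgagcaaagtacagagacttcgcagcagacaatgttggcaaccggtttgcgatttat
aop: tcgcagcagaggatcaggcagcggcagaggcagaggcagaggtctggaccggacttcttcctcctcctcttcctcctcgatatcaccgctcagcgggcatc
Ubr1: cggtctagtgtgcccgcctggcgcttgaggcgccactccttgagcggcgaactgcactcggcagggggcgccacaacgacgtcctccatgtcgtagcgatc
The windows at Hnf4, drn and CG15258 had 22.8%, 24.8% and 23.8% G and C bases, and those at Snoo, aop and Ubr1 had 42.6%, 62.4% and 67.3%.

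The last set holds outside peaks with the 8-mer CAAAGTCC, in capitals, which reads GGACTTTG where it lies on the minus strand. It was known from the optimal list. The peaks lay nearest to the TSSs of Dyrk2, a protein kinase (chr2L:14238284-14238384), Mdh1, malate dehydrogenase (chr2L:10395765-10395865), Nepl8, a neprilysin-like gene (chr2L:16488023-16488123), and svp, a nuclear receptor of photoreceptor fate (chr3R:12288562-12288662).
Dyrk2: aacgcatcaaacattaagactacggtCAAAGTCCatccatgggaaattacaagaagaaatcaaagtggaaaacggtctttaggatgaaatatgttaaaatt
Mdh1: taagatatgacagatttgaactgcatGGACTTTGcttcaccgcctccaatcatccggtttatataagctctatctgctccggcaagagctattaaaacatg
Nepl8: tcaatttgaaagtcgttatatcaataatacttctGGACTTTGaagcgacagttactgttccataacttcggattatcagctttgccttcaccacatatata
svp: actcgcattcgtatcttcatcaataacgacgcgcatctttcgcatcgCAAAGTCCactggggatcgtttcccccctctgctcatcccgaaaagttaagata

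The signal values of the outside peaks spanned a narrow range. They lay between 106.3 and 127.0, with a median of 115.3 and quartiles of 110.8 and 121.0, against 127.0 to 3648 and a median of 200.4 in the optimal list. The first outside peak, 2019 bp from the TSS of CG1213, had a signal value of 126.968, and the last optimal peak, 5577 bp from the TSS of Taf9, had 126.971. The last outside peak, 3503 bp from the TSS of Nrt, had 106.311, and the next entry, 317 bp from the TSS of trh, had 106.258 and a −log10 q value of 3.62. The rule fixes this order, so the values are given as a description; neither edge coincided with a step in signal, as the plot of signal against rank shows. The q values limit the outside peaks at their lower edge, and the authors' threshold at the upper.

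Width and composition were also close to those of the neighbouring ranks. The width was 390 bp in 1459 outside peaks (98.5%), against 2729 optimal peaks (56.7%). It was the same in 93.5% of the 1481 weakest optimal peaks and in 98.5% of the 1481 entries ranked just below. Within 50 bp of the summit the outside peaks had a median of 41.6% G and C bases, against 37.6% in the optimal list, 41.6% in its 1481 weakest peaks and 43.6% in the next 1481 entries. More than 50% of the window was masked as repeat in 8.64% of the outside peaks and in 12.0% of the optimal peaks, and 2 outside summits lay in an annotated transposable element.

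**Figure D1:**
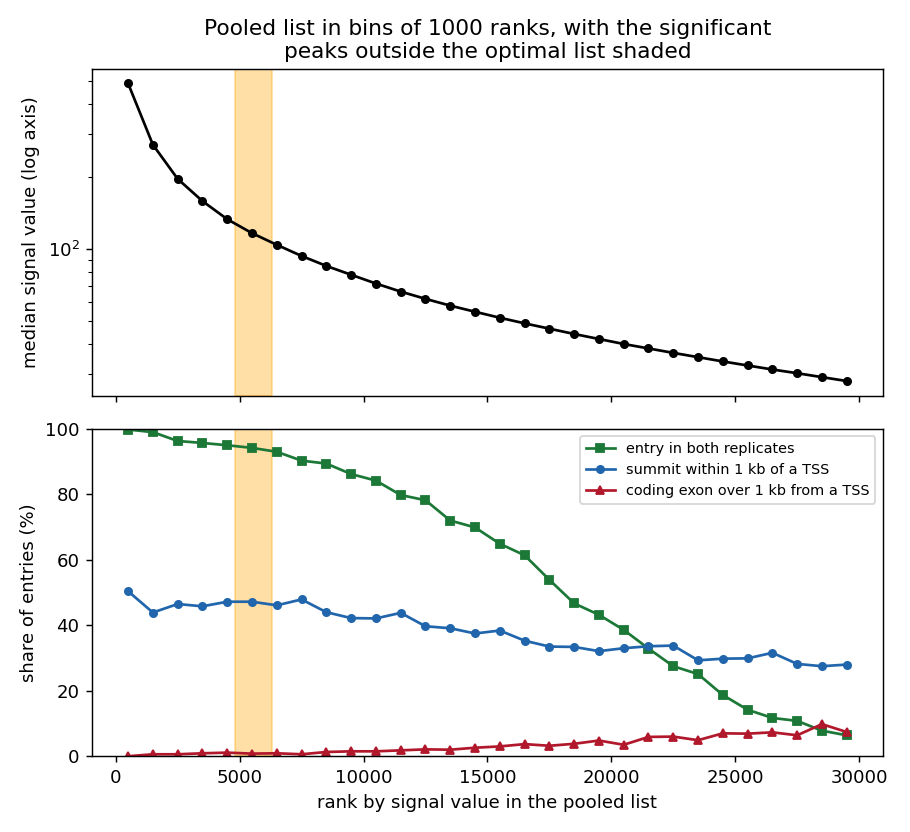
The upper panel plots the median signal value (log axis) and the lower panel the share of entries in percent, both over bins of 1000 ranks of the pooled list, with ranks 4810 to 6290 shaded. Green squares are entries with a summit within 200 bp in both replicate lists, blue circles are summits within 1 kb of a TSS and red triangles are summits in coding exons farther from a TSS; the share in both replicates falls with rank before, inside and after the shaded band, with 94.2% in the bin that lies inside it.

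The first question was whether the outside peaks lay at the same kinds of positions as the optimal peaks. Promoters held the largest share: for 715 of 1481 (48.3%, 95% Wilson interval 45.7 to 50.8) the summit was at most 1 kb away from the TSS of a protein-coding gene, against 2238 of 4809 (46.5%) in the optimal list, with no difference past the threshold (Fisher's exact test, adjusted p = 0.491). A further 490 lay in introns (33.1%, against 35.8%, Fisher's exact test, adjusted p = 0.173) and 239 outside genes (16.1%, against 16.1%, Fisher's exact test, adjusted p = 0.936). Coding exons farther than 1 kb from a TSS held 11 (0.743%, against 31 or 0.645%, Fisher's exact test, adjusted p = 0.858).

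None of 6 tests of position passed the threshold after adjustment by the method of Benjamini and Hochberg, and 1 had an unadjusted p under 0.05. That was for untranslated regions (UTRs) more than 1 kb from a TSS, which held 26 outside summits (1.76%) and 47 optimal summits (0.977%, Fisher's exact test, p = 0.0181, adjusted p = 0.109). With TSSs counted within 500 bp, the shares were 3.11% and 1.93% and the difference passed (Fisher's exact test, adjusted p = 0.0333), as did the lower share in introns (39.0% against 42.9%, Fisher's exact test, adjusted p = 0.0333). Over all alternatives the adjusted p ranged from 0.0191 to 1 for UTRs, lowest without replicate 1, and from 0.0333 to 0.95 for introns. The X chromosome held 272 of the 1474 outside peaks not on chromosome 4 (18.5%), against 17.9% of the optimal peaks (Fisher's exact test, adjusted p = 0.858).

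**Figure D2:**
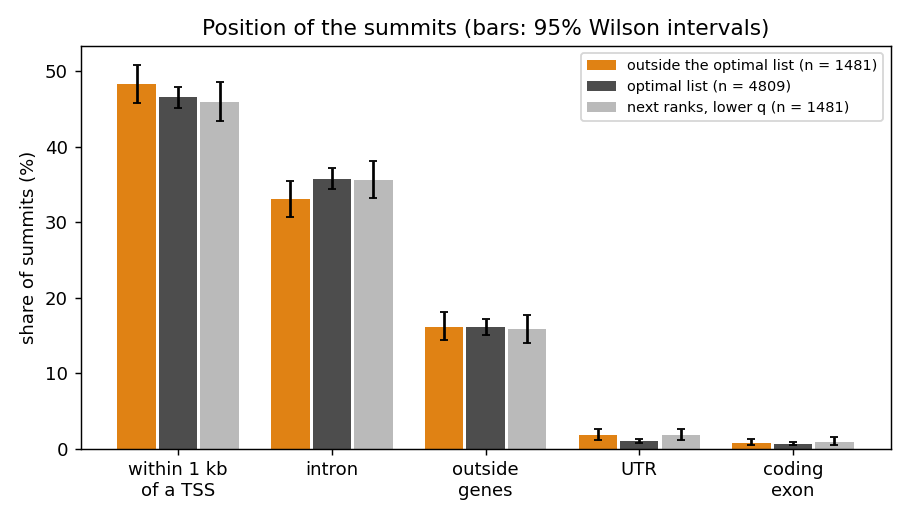
Bars give the share of summits in percent by position, with 95% Wilson intervals, for the 1481 outside peaks, the 4809 optimal peaks and the 1481 entries ranked just below. The outside peaks stand at 48.3% near a TSS, 33.1% in introns and 16.1% outside genes, within a few percentage points of both other sets.

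Across the genome the outside peaks were spread evenly over the large arms, with 10.3 to 12.2 per Mb. Chromosome 4, small and rich in heterochromatin, held 7, or 5.19 per Mb. The median distance to the nearest optimal summit was 4029 bp, and 81 outside peaks (5.47%) overlapped an optimal interval. An optimal summit was 1 kb away or closer for 258 (17.4%, 95% Wilson interval 15.6 to 19.4), against 18.5% in the next 1481 entries. A total of 891 genes had an outside summit within 1 kb of a TSS, and 651 of these (73.1%) had no optimal summit there. Of all 13945 genes 2375 had an optimal summit there, so most genes had none, with or without an outside summit.

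The pooled list was made from both replicates, so the replicate lists are no independent view of these regions and are given as a description. An entry counted for a peak when the summits lay within 200 bp. Every outside peak had an entry in at least 1 replicate list, and 1387 (93.7%, 95% Wilson interval 92.3 to 94.8) had one in both, against 97.3% of the optimal peaks and 92.0% of the next 1481 entries. Entries were found in replicate 1 alone for 62 and in replicate 2 alone for 32. These replicate lists had 30000 entries each, most of them weak, so an entry alone says little about strength.

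Strength in the replicates was much less shared. Only 32 outside peaks (2.16%, 95% Wilson interval 1.53 to 3.03) had entries among the 4809 strongest of both lists, against 63.3% of the optimal peaks, 19.0% of the weakest 1481 of them and 1.28% of the next 1481 entries. Another 439 (29.6%) were among the strongest in replicate 1 alone, 484 (32.7%) in replicate 2 alone and 526 (35.5%) in neither. The highest −log10 q value of both replicate lists was reached by 213 outside peaks (14.4%), against 78.1% of the optimal peaks. Since the members were chosen by the pooled signal, a peak strong in 1 replicate largely had to be weaker in the other to stay in the band, so these shares describe the band and support nothing further. The median rank was 5941 in replicate 1 and 5666 in replicate 2.

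**Figure D3:**
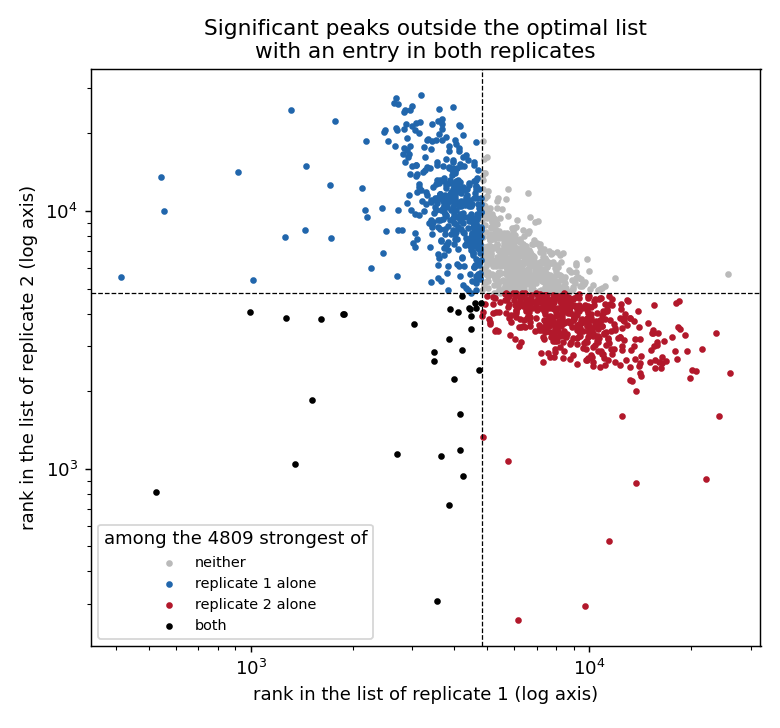
Each point is 1 of the 1387 outside peaks with an entry in both replicate lists, by its rank in replicate 1 and in replicate 2 (both log axes, rank 1 strongest). Dashed lines mark rank 4809; 32 peaks lie below both lines, and the others form an arc that the choice by pooled signal imposes.

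The members of best rank in a replicate need care. In replicate 1 they lay in introns at CG7694 and fray, a kinase gene (rank 414), kis, a chromatin remodeller (527), Ctps, the CTP synthase gene (542), and Tlk, a kinase gene (554), and in a UTR at CNBP (920). In replicate 2 they lay at Pde11, a phosphodiesterase gene (rank 259), CG33947 (293), EDTP (308), CG33798 (524) and Mcad, a dehydrogenase of fatty acid oxidation (726). All 10 summits were 200 to 215 bp from an optimal summit, and of the 32 peaks strong in both replicates 17 lay within 250 bp of one. The replicate entry counted for such a peak can be that of its optimal neighbour. When each replicate entry was given only to its closest pooled summit, a choice made after seeing the data, 0.675% of the outside peaks were strong in both replicates and 89.1% had an entry in both.

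The 15 outside peaks of highest signal had values from 126.7 to 127.0 and could hardly be ordered. Hnf4, a nuclear receptor gene of lipid metabolism, had one in an intron, 177 bp from a TSS, with rank 1486 in replicate 1 and no entry in replicate 2. Snoo, a Ski family repressor of TGF-beta signalling, had one in an intron with rank 1659 in replicate 2 and no entry in replicate 1. The peak 21 bp from the TSS of Liprin-beta, a synaptic scaffold gene, had rank 2866 in replicate 1 but 15477 in replicate 2. The one 482 bp from the TSS of CrebA, a bZIP factor of secretory cells, ranked 2443 and 10238 in replicates 1 and 2. The peak in ari-2, an E3 ligase gene, ranked 5023 and 5584 in replicates 1 and 2, close to each other. The rest lay in introns of Mnt, a partner of Max, Fas2, a cell adhesion gene, Idh, aus, CG42663 and tkv, the Dpp receptor gene, or outside genes nearest to CG1213, Or45b, an odorant receptor gene, CG2217 and plh. Of the 15, 5 had no entry in 1 of the replicates, and those in Idh and tkv lay 209 and 234 bp from an optimal summit.

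The peaks strong in replicate 1 alone and in replicate 2 alone differed in base composition, a comparison chosen after seeing the data. The 439 strong in replicate 1 alone had a median of 31.7% G and C bases within 50 bp of the summit (quartiles 26.7% and 39.6%), and the 484 strong in replicate 2 alone had 48.5% (43.3% and 53.5%). The median over genome tiles of the same length was 42.6%, between these. The optimal peaks split the same way, with 30.7% in the 963 strong in replicate 1 alone and 48.5% in the 739 strong in replicate 2 alone. Each class rests on 1 library, so library preparation and animals cannot be told apart.

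**Figure D4:**
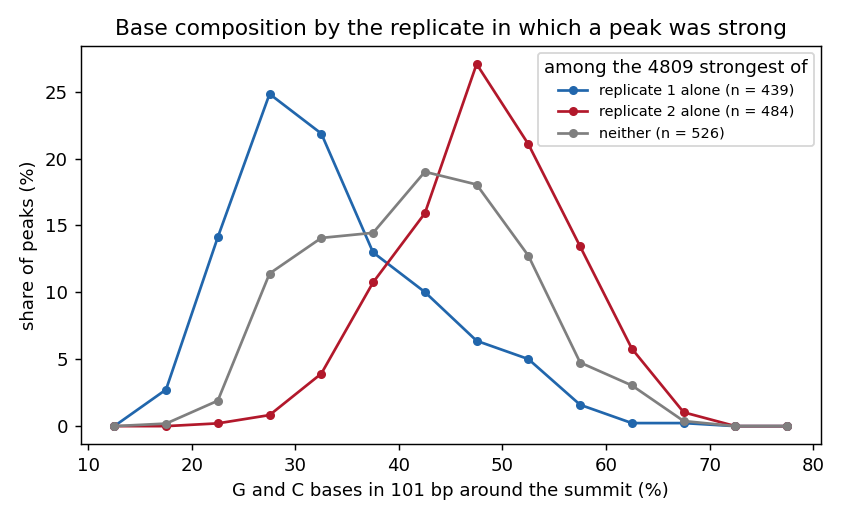
Lines give the share of outside peaks in percent, in steps of 5 percentage points of G and C content within 50 bp of the summit, for the 439 peaks strong in replicate 1 alone, the 484 strong in replicate 2 alone and the 526 strong in neither. The curves of the replicates peak on opposite sides of that for neither, with medians of 31.7% and 48.5% against 42.1%.

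Position and motifs moved with these classes, each of which rests on 1 library. The tests were chosen after seeing the data, and their p-values describe lists of peaks, not the spread between libraries. A summit within 1 kb of a TSS was found for 177 peaks strong in replicate 1 alone (40.3%) and 268 strong in replicate 2 alone (55.4%, Fisher's exact test, adjusted p = 3.15e-05), while introns held 36.7% and 28.1% (Fisher's exact test, adjusted p = 0.0119) and 22.3% and 13.4% lay outside genes (Fisher's exact test, adjusted p = 0.00156). GAGAGA, the site of the GAGA factor, was at 3.87% and 11.6% (Fisher's exact test, adjusted p = 8.23e-05), and the E-box CAGCTG at 2.28% and 6.82% (Fisher's exact test, adjusted p = 0.0038). TAATTA, a site of homeodomains, was at 9.34% and 2.27% (Fisher's exact test, adjusted p = 3.21e-05), and AGATAA of GATA factors at 7.74% and 3.51% (Fisher's exact test, adjusted p = 0.0175). GTCACA, of the core promoter element called motif 1, was at 1.82% and 4.55%, and CAAAGTCC at 1 and 9 peaks (Fisher's exact test, adjusted p = 0.0493 for each). With replicate entries matched within 100 bp or 500 bp, GTCACA did not pass the threshold. CAAAGTCC passed it at 100 bp but not at 500 bp. The optimal peaks strong in replicate 1 alone and in replicate 2 alone differed in the same directions, which was not tested. Their shares were 37.6% and 52.2% near a TSS, 4.57% and 12.2% for GAGAGA, and 10.1% and 2.17% for TAATTA.

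Base composition differed with the classes too. Of the outside peaks strong in replicate 1 alone 80.9% had G and C content at or under the median of all outside peaks, against 23.1% of those strong in replicate 2 alone. Under that median the TSS shares were 36.3% and 54.5% (Fisher's exact test, adjusted p = 0.00536), and over it 57.1% and 55.6% (Fisher's exact test, adjusted p = 1). None of the 12 motifs passed the threshold on either side of the median; TAATTA was at 10.99% and 4.46% below it and at 2.38% and 1.61% above it. The split did not match G and C content between the classes within each side. The part of G and C content in the motif differences was not tested. Above the median, where the classes held 84 and 372 peaks, GAGAGA was at 5 and 49 of them (5.95% and 13.2%). CAGCTG was at 2 and 29 there (2.38% and 7.80%). Below the median GAGAGA was at 3.38% and 6.25% and CAGCTG at 2.25% and 3.57%. There were 2 motifs below it and 0 above it at an unadjusted p under 0.05 by Fisher's exact test. Over all alternatives the adjusted p of the TSS difference ranged from 5.92e-06 to 1, that of GAGAGA from 1.80e-06 to 0.553 and that of TAATTA from 2.94e-05 to 0.994.

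Sequence at the outside summits was then set against windows 500 bp to the side of the same peaks. Of 2080 6-mers, with both strands joined, 9 were more frequent at the outside summits (0.433% of those tested) and 7 less frequent (0.337%) where the adjusted p was below 0.05 and the frequencies differed by 1.5-fold or more; 233 had an unadjusted p under 0.05. Of the 9, 5 contain GAGAG or GAGCG on either strand, so they are not separate counts. GCGAGA had the highest ratio, with 103 summits against 43 flanks (fold 2.40, adjusted p = 0.00154 by the exact McNemar test, range over alternatives 6.27e-05 to 0.339). The other folds were those of CGCTCA (2.14), GCTCAC (2.08), CGAGAG (1.98), ACAGTG (1.91), GAGAGC (1.83), AGAGAG (1.82), GAGCGA (1.79) and AGTGCA (1.58). The 7 less frequent were CAGGAC (0.273), ATCCTG (0.357), CCAGGA (0.377), CTCCAG (0.435), CCAGGC (0.485), GCTGGA (0.523) and GCCAAA (0.609).

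In the optimal list the same test, of 2080 6-mers, called 12 more and 188 less frequent. Of these, 3 and 6 were shared with the outside peaks, a share of 3 in 9 and 6 in 7 of the outside calls. The limit of 1.5-fold set part of this overlap. GCGAGA (fold 1.45 there), AGTGCA (1.42), GAGCGA (1.41) and GAGAGC (1.36) fell short of that limit only. Their adjusted p was below 0.05 in the optimal list by the exact McNemar test. CGCTCA (1.18) and GCTCAC (0.988) did not reach that adjusted p. The difference between the lists was not tested. In bands of the same ranks in the replicate lists, AGAGAG was the only one of the 9 called in both, with 2.06 without replicate 1 and 1.69 without replicate 2.

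Fixed motifs were compared directly between the outside and the optimal peaks. None of 12 differed past the threshold by Fisher's exact test, and 2 had an unadjusted p under 0.05. CAAAGTCC was at 15 outside summits (1.01%, 95% Wilson interval 0.615 to 1.66) and 94 optimal summits (1.95%, Fisher's exact test, p = 0.0162, adjusted p = 0.132), against 0.359% of genome tiles and 5 flanks of the outside peaks. Without replicate 1 it was at 0.878% in the band and 2.39% in the stronger peaks and passed the threshold (Fisher's exact test, adjusted p = 0.00157, range over alternatives 0.00157 to 1). CAAAGTCC was chosen on the optimal list, which favoured a lower share in the outside peaks in advance. These tests therefore cannot decide whether it was rarer there. Against the next entries, on which it was not chosen, the sign reversed, with 1.01% against 0.743% (Fisher's exact test, p = 0.555). CAGCTG was at 5.33% of the outside and 3.91% of the optimal summits (Fisher's exact test, p = 0.022, adjusted p = 0.132).

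GAGAGA was at 7.90% of the outside and 7.88% of the optimal summits, and at 3.55% of genome tiles. Against its own flanks it had a fold of 1.58 in the outside peaks (exact McNemar test, adjusted p = 0.087). The E-box CACGTG, bound by Myc and its relatives, was at 22 outside summits (1.49%) and 6 flanks (fold 3.67, exact McNemar test, adjusted p = 0.155), against 0.915% of the optimal summits and 1.17% of tiles. The other motifs, CAGGTA of Zelda, TATCGA of DREF, TGACTC of AP-1, TAATTA of homeodomains, AGATAA of GATA factors, CCGGAA of ETS factors, GTCACA of motif 1 and AAGGTC of nuclear receptors, lay between 1.89% and 5.54% of the outside summits and between 1.75% and 6.53% of the optimal summits.

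**Figure D5:**
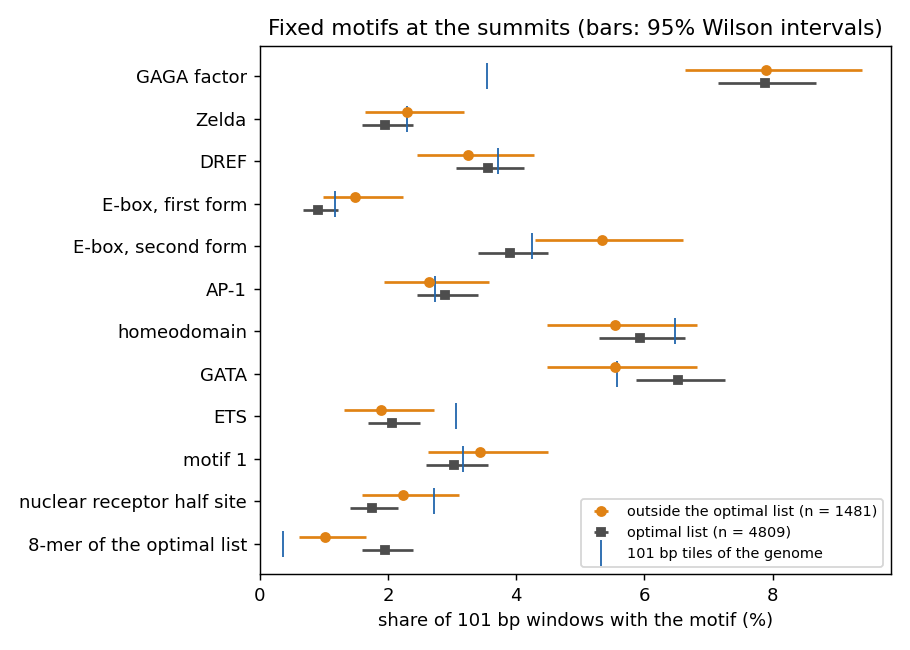
Points give the share of windows, 50 bp to each side of the summit, with each motif in percent, with 95% Wilson intervals, for the 1481 outside and the 4809 optimal peaks; vertical marks give the share of all genome tiles of the same length. The first E-box form is CACGTG, the second CAGCTG and the last line CAAAGTCC; the GAGA factor site stands above the tiles in both lists, and no motif differed between the lists past the threshold.

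Of the 15 outside peaks with CAAAGTCC, the 8-mer lay within 25 bp of the summit in 12, with a median distance of 12.5 bp, and the next base was A in 8. That next to Dyrk2 had a signal value of 126.0 and ranked 8411 in replicate 1 and 3427 in replicate 2. The peak in an intron of Mdh1 had 122.2, with ranks of 5100 and 3654 in replicates 1 and 2, and that 75 bp from the TSS of Nepl8 had 120.6, with ranks of 6722 and 4739. The peak in svp had 123.8 and ranks of 4145 and 1181, but lay 202 bp from an optimal summit. The peak outside genes nearest to CG12538 had 123.8 and ranks of 8472 and 3270. Among the 15, 14 ranked better in replicate 2, and CG5321 was the exception, at 4495 in replicate 1 and 8150 in replicate 2. Of all outside peaks with entries in both replicates, 734 ranked better in replicate 2 and 652 in replicate 1. The difference was not tested.

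At the level of genes, 1417 of 13945 protein-coding genes (10.2%) had an outside summit within their span extended by 1 kb. Of these 710 also had an optimal summit, and 707 (5.07% of all genes) had none. The number in a gene was mostly small, with 1 in 1185 genes, 2 in 163 and 3 or more in 69. Long genes led: mam, a co-activator of Notch, and mamo, a zinc finger gene, had 6 each, beside 11 and 8 optimal summits. CG9328, Mur2B, SNF4Agamma, a subunit of the AMP-activated kinase, ckn and kirre, a cell adhesion gene, had 5 each, and CG1677, CG42238 and CG5151 had 4, as did further genes.

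Of 29 genes of retinal specification, 8 (27.6%, against 10.2% of all genes) had an outside summit and 5 (17.2%, against 5.07%) had no optimal one; the median span of the list was 14.8 kb, against 2.17 kb over all genes, and longer spans catch more summits. The peak of ey lay 7 bp from its TSS with a signal value of 110.2, and ranked 10421 in replicate 1 and 4542 in replicate 2. That of tsh, 314 bp from its TSS, had 108.7 and ranks of 9870 in replicate 1 and 4143 in replicate 2. That of sca, a secreted protein that spaces photoreceptor precursors, lay 63 bp from its TSS, with 110.8 and ranks of 9311 in replicate 1 and 4773 in replicate 2. The lz peak, 404 bp from the TSS, had 115.2 and ranks of 7084 in replicate 1 and 5703 in replicate 2.

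The fifth gene was ro, a homeodomain gene of photoreceptor fate, but its peak (120.3) lay 1 bp from the TSS of ms(3)K81 and 5293 bp from its own, with ranks of 5500 in replicate 1 and 5757 in replicate 2. Genes of the list with optimal peaks as well were svp, with 4 outside summits, dac and hth. The strongest of svp ranked 6601 in replicate 1 and 3932 in replicate 2, that of dac 3410 and 11051, and that of hth 3955 and 14721. Of the 8 genes, 5 had the better rank in replicate 2 and 3 in replicate 1. Over all outside peaks with entries in both replicates the split was similar, with 734 better in replicate 2 and 652 in replicate 1. The gene gl itself had no outside peak in or within 20 kb of it.

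Of 33 genes of phototransduction and the rhabdomere, with a median span of 5.77 kb, 5 (15.2%, against 10.2% of all genes) had an outside summit. An optimal summit was found in 10 (30.3%, against 23.1% of all genes). Galphaq, the G protein that couples rhodopsin to phospholipase C, had no optimal peak and an outside peak 160 bp from its TSS, with 117.2 and ranks of 6202 and 6326 in replicates 1 and 2. That at ninaB, an oxygenase gene of chromophore synthesis, lay 263 bp from the TSS with 110.8, and ranked 19509 in replicate 1 and 2866 in replicate 2. The others were crb, rdgA, a diacylglycerol kinase gene with a summit 7 bp from its TSS (108.8), and norpA, the phospholipase C gene (106.9). Lens, cone and pigment cells, with a median span of 10.7 kb, had 3 of 15 (20%), namely kirre, ct and Cad86C, all with optimal peaks. Of the 15 genes 8 (53.3%) had an optimal summit.

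Of 24 genes of the ecdysone response 12 (50%) had an outside summit, against 10.2% of all genes. An optimal summit was found in 18 (75%), against 23.1% of all genes. Their median span was 21.8 kb, against 2.17 kb over all genes, and the differences in share were not tested. The 2 without an optimal peak were usp, the partner of the ecdysone receptor (143 bp from its TSS, 119.8, ranks 5631 and 4989 in replicates 1 and 2), and Blimp-1, a zinc finger repressor (631 bp, 114.3, ranks 4569 and 8872). EcR, the receptor, had 3 outside and 11 optimal summits, and br, a zinc finger gene of metamorphosis, had 4 outside and 1 optimal.

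Of all genes 10.2% had an outside summit and 23.1% an optimal one, and 50.1% of those with an outside summit also had an optimal one. The signalling lists are given by their counts, which were not tested. Optimal summits were found in 65.2% of EGFR and Ras, 68.8% of Notch and 76.2% of Dpp, Hedgehog and Wingless genes. In JNK and cell death the share was 36.8%. Median spans were 13.3 kb for EGFR and Ras, 13.1 kb for Notch and 13.6 kb for Dpp, Hedgehog and Wingless signalling. JNK and cell death had 5.845 kb, and all genes 2.17 kb. EGFR and Ras signalling had 7 of 23, all with optimal peaks, such as S, the Star gene (124.6, 21 bp from its TSS), vn, a ligand gene (124.4), and sty, the gene of the inhibitor Sprouty (123.7). Notch signalling had 4 of 16, emc, mam, Ser and kuz. The summit counted for kuz lay 161 bp from the TSS of B4 and 972 bp from that of kuz. Dpp, Hedgehog and Wingless signalling had 7 of 21, of which pan, the TCF factor of Wingless signalling, had no optimal peak; its summit lay 37 bp from the TSS, with 124.7, rank 4030 in replicate 1 and no entry in replicate 2. JNK and cell death had 8 of 19, 3 without an optimal peak. The peak at hep, the gene of the kinase that activates JNK, lay 281 bp from its TSS (111.8). Those counted for grnd, a TNF receptor gene, and Dark, the Apaf-1 gene, lay 8 bp from the TSS of CG10283 and 258 bp from that of RhoGEF2.

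Of 84 genes of cytosolic ribosomal proteins, 57 (67.9%) had an optimal peak, against 3224 (23.1%) of all 13945 genes. The median span of the list was 1.34 kb. An outside summit was found at 8 (9.52%), near the 10.2% of all genes, and 7 of these (8.33% of the list, against 5.07% of all genes) had no optimal peak. The 7 were RpL40 (126.3), RpL23 (125.5), RpL10Ab (122.1), RpS2 (110.7), RpS6 (110.4), RpL10 (108.5) and RpL15 (107.0), given with their signal values. In 6 of them the summit lay 16 to 120 bp from the TSS, and at RpL40 it lay 1041 bp away. RpL10 and RpL15 had no entry in replicate 2.

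Shares in the other lists stand beside the 10.2% of all genes with an outside summit, and none was tested. Their median spans ran from 2.56 kb for fatty acid oxidation to 26.6 kb for chromatin and BTB factors, against 2.17 kb over all genes. Longer spans catch more summits, so a share over 10.2% is not enrichment by itself. Chromatin and BTB factors had 7 of 17, with BEAF-32, an insulator protein gene, the only one without an optimal peak (20 bp from its TSS, 120.4). Glia had 4 of 14, with drpr, an engulfment receptor gene (115.4), without an optimal peak. Muscle had 5 of 22, of which Act87E, an actin gene, had none (111.1, 2012 bp from the TSS). Fat body and blood cells had 2 of 17, crq, a scavenger receptor gene (107.9), and ush (123.9). Fatty acid oxidation had 3 of 16, Hnf4, Mcad and bmm, the lipase gene. The summit counted for bmm lay 51 bp from the TSS of Tdrd3 and 328 bp from that of bmm. All 16 genes of the list had optimal peaks, against 23.1% of all genes. Neurons had 0 of 20.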

How the data were processed

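Peak lists for dm6 were deposited by the authors: 1 for each of the 2 replicates, 1 pooled and 1 optimal. Per the deposited text files, replicate lists used an alignment of the replicate and of a control. The aligner, peak caller and read depth are not given in the sources used here. The number of reads behind a peak is therefore unknown. The signal value and the −log10 q value are those that the authors deposited; signal values were not compared between lists. The free-text description of both samples calls them an input control, whereas antibody, assay and files describe ChIP of gl, and they were treated as ChIP.

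Members were found by the rule in the opening. The members, gene lists, motifs and tests were chosen with earlier results of these data known. Annotation came from Ensembl release 115 and sequence from RefSeq, both of the dm6 assembly, within whose chromosome lengths all entries lay. Coordinates are 1-based. Shares were compared by two-sided Fisher's exact tests, 6-mers by exact McNemar tests, with Benjamini-Hochberg adjustment of p-values over all 6 positions, 12 motifs or 2080 6-mers. Peaks are not independent replicates, so p-values describe the lists, not the spread between animals, and Wilson intervals cover sampling of peaks only. The class of UTRs, the list of ribosomal proteins and the comparison of replicate classes were added later, and 9 gene symbols were replaced by those of the annotation. Genes are named by rule: gl, those at the 15 strongest outside peaks, at the 5 best of each replicate and at 5 with CAAAGTCC, up to 3 per list and the 10 with most summits; further ones, and the sequences shown for retinal genes and replicate classes, were chosen after their values were seen. The tests were checked on simulated data. Python 3.11.15, SciPy 1.17.1 and pandas 2.3.3 were used.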

Additional observations from a re-analysis of the deposited data

How the results depend on the processing

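Differences are outside minus optimal peaks, in percentage points. Leaving out a replicate used the other's list at the same ranks. Between those 2 fits the difference was −2.42 to 1.43 near TSSs, 0.638 to 0.976 in UTRs and −2.16 to −0.378 on X, reversing near TSSs without replicate 1 and on X in both. It was −2.08 to 1.63 for GAGAGA, −0.459 to −0.407 for CAGGTA, −0.0966 to 1.58 for TATCGA, −0.0790 to 0.306 for CACGTG, 0.341 to 0.512 for TGACTC, −1.44 to 0.173 for TAATTA, −0.0912 to 0.350 for GTCACA and −0.532 to 0.0140 for AAGGTC. The 6-mers called numbered 17 to 38 higher and 21 to 34 lower, and 0 to 2 fixed motifs passed, TATCGA (adjusted p = 0.0303 by Fisher's exact test, range over alternatives 0.0303 to 1) and CAAAGTCC without replicate 1. CAAAGTCC was chosen on the optimal list, which favoured its difference in advance. With TSSs within 500 bp, introns gave −3.83, UTRs 1.17 and positions outside genes −0.0365. Within 2 kb, coding exons gave −0.0523 and positions outside genes −0.313. Against the 1481 weakest optimal peaks, coding exons gave −0.405, outside genes −0.203, GAGAGA −0.270, TAATTA 0.135 and AGATAA 0.0675. Against the next entries, coding exons gave −0.135, X −0.0376, GAGAGA −0.743, CAGGTA −0.405, TAATTA 0.338, GTCACA −0.0675 and CAAAGTCC 0.270. In windows of 100 bp to each side, GAGAGA gave −2.08, CAGGTA −1.001, TATCGA 0.300 and CCGGAA 0.0693, and 29 6-mers were higher and 20 lower. With flanks at 1000 bp these were 31 and 23, and in the 740 strongest outside peaks 1 and 1. An optimal summit lay within 500 bp of 6.28% and within 2 kb of 33.0%. Entries in both replicates were found for 82.4% within 100 bp and 97.5% within 500 bp, and 0.270% and 7.70% were strong in both; with each entry given to its closest summit the shares were 89.1% and 0.675%. Genes with an outside summit numbered 850 without extension, 2666 with 5 kb and 773 for the 740 strongest peaks; those with no optimal summit numbered 360 without extension and 363 for the 740 strongest. Between replicate classes (replicate 1 minus replicate 2), the TSS difference reversed to 1.498 where G and C content was over the median. GAGAGA gave −2.87 at or under the median and −7.22 over it, and TAATTA 6.52 and 0.768, none past the threshold. The causes were not tested. No paired analysis was possible because there is only 1 group. Read depth is unknown and each replicate is 1 library.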

Other observations

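Of the 1481 outside summits, 8 lay at tRNA genes (0.540%), 6 at snoRNA genes (0.405%) and 115 at other noncoding RNA genes (7.77%), against 30 (0.624%), 30 (0.624%) and 390 (8.11%) of the 4809 optimal summits. By rank, CAAAGTCC was at 30 of the first 1000 entries of the pooled list, at 10 of the fifth 1000 and at 9 of the sixth, which lies inside the band. These values were not tested, and the 8-mer was chosen on the optimal list, which favours the first ranks.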
